A study of Mus musculus with 20 samples.

Results

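The oligoadenylate synthetase family of the mouse was followed through 9 genes, Oas1a, Oas1b, Oas1c, Oas1f, Oas1g, Oas2, Oas3, Oasl1 and Oasl2, of 30342 genes or transcripts on the array. They were chosen by name: each non-control probe annotated to a member was taken, which gave 13 probes of 39429.

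Oligoadenylate synthetases are interferon-induced enzymes that bind double-stranded RNA and then join ATP into short oligoadenylates. These serve as a second messenger in the defence of the cell against viruses. In the mouse the Oas1 gene has been copied several times, and only some copies keep the enzyme activity, while Oasl proteins carry ubiquitin-like domains behind the synthetase unit.

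RNA came from C57BL/6 mice kept in a specific pathogen-free barrier facility on 20 single-colour (Cy5) Agilent arrays of 60-base probes. Irgm1 encodes an interferon-induced GTPase of the immunity-related family that takes part in autophagy and in defence against microbes within cells, and the series title asks which interferon-stimulated genes are raised in several tissues of Irgm1-/- mice. Whole salivary gland came from 4 mice labelled Irgm1-/- (9 weeks old) and 4 wild type mice (2 of 6 weeks and 2 of 7 weeks), all female, so age and genotype cannot be told apart there. Whole duodenum, called small intestine here, came from 3 mice of each label, aged 6, 8 and 6 weeks in both. Isolated colonic macrophages came from 3 mice of each label, aged 8, 6 and 6 weeks in both, and animal numbers in the files tie these arrays to the same 6 animals as the small intestine. In both gut sources, 2 of the 3 mice labelled Irgm1-/- were male and the wild type mice were female, so sex and genotype cannot be told apart. How the allele was made, which part of Irgm1 it lacks and how the macrophages were isolated are not given in the sources used here.

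A level below is the log2 processed signal of a probe minus the 75th percentile of its array, so 0 is a bright probe and each step of 1 is a doubling. A probe is called detected on an array where the scanner software marks it as well above background. Irgm1 itself read higher under the Irgm1-/- label than in wild type: salivary gland levels were 0.44, -0.05, -0.80 and -0.22 against -2.86, -2.90, -2.68 and -2.76. In small intestine they were 2.16, 2.09 and 2.24 against 0.96, 1.1 and 0.94, and in macrophages 0.50, 0.95 and 0.47 against -0.69, 0.24 and -0.26. Since the deleted part is not known here, these probes do not check the label, and the groups are called "labelled Irgm1-/-" throughout. Array brightness, given as the 75th percentile of intensity, was 130.2 to 1021.7 in salivary gland, 2321.5 to 4689.5 in small intestine, where all 3 arrays labelled Irgm1-/- were brighter than the wild type arrays, and 922.4 to 2137.1 in macrophages. In salivary gland it was 1021.7, 355.8, 364.4 and 154.2 under the Irgm1-/- label against 331.7, 260.9, 171.3 and 130.2 in wild type. Probes detected there ran from 27.2% to 48.7% against 25.2% to 36.0%, so detection counts in that tissue compare arrays of unlike brightness. Of 8 acinar markers, 7 were detected on every salivary gland array, and 8 of 8 enterocyte markers on every small intestine array. Of 10 macrophage markers, 7 were detected on every array of isolated macrophages. The summed level of the list (linear, relative to the percentile) was 4.91 to 27.4 there and 24.9 to 41.3 in whole small intestine. These ranges overlap, and each sum is relative to the percentile of its own array, so the tissues are not directly comparable. All 5 epithelial markers were detected on every array of isolated macrophages as well.

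Of the 9 synthetases, 5 rose in mice labelled Irgm1-/- in salivary gland, 2 in small intestine and 1 in colonic macrophages. In salivary gland 6 of the 9 genes were detected well enough to be tested, and 5 of the 6 rose past an adjusted p of 0.05 (limma, Benjamini-Hochberg over all genes tested), against 2.09% of the 11463 genes tested: Oas1a, Oas1f, Oas2, Oasl1 and Oasl2. Oas1a differed by 4.48 and Oasl2 by 3.80 on the log2 scale. Oas1f, Oas2 and Oasl1 reached the detection filter only through the arrays labelled Irgm1-/-, so a difference was built into their being tested. Wild type arrays detected Oas2 on 0 of 4, which leaves a rise of at least 12.6-fold, and Oas1f and Oasl1 on 1 of 4 each. The groups did not overlap for these 5 genes, against 10.3% of genes tested with the group labelled Irgm1-/- wholly above wild type. The median over the 6 was 4.19 (3.98 with Oas2, which was below background in wild type, at its bound), beside 0.03 over all genes tested. Oas1b was the exception, at 0.20 on the probe that stands for it. In whole tissue, more cells of a type and more RNA per cell cannot be told apart. Macrophage markers moved the same way in salivary gland: 4 of 9 tested were higher (C1qa, C1qb, C1qc and Mrc1), with summed levels of 9.44 to 19 against 5.52 to 11.6, and the monocyte list rose through Plac8, its only tested member, with sums of 1.08 to 3.01 against 0.164 to 0.243 (Ccr2 was detected on 0 arrays). The T and NK cell (1 of 4 tested), neutrophil (1 of 2) and dendritic cell (1 of 3) lists each had a member higher as well, and the acinar list summed to 95.5 to 357 against 231 to 386 with 0 of 8 called. Their part in the synthetase values was not tested.

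In small intestine 8 of the 9 genes were tested and 2 rose, Oas2 and Oas3, against 0.145% of 17965 genes tested. The groups of 7 of the 8 lay apart with the mice labelled Irgm1-/- on top, against 5.41% of genes. The members' median difference was 1.43 beside -0.10 over all genes. The mouse numbers were taken to pair the arrays here, which the labels do not state. With the mouse number as a block 0 of the 8 passed in limma (adjusted p of Oas2 0.0821, of Oas3 0.121), against 0.00557% of genes. Without a block, 1249 genes had an unadjusted p below 0.05 and 0 were called lower. Summed macrophage markers ran from 30.6 to 41.3 against 24.9 to 30.1, and B and plasma cell markers from 39.1 to 57.1 against 27.2 to 36. Enterocyte markers ran from 372 to 418 against 448 to 564, and the epithelial list from 200 to 245 against 259 to 300, both lower on every array labelled Irgm1-/-. None of the tested members of these 4 lists (10, 5, 8 and 5) passed, and their part was not tested.

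In isolated colonic macrophages the 9 genes were all tested and 1 rose, Oas3, against 0.00954% of 20959 genes tested higher and 0.129% lower. The groups of 8 of the 9 lay apart, against 7.19% of genes, with a median difference of 1.57 beside 0.10 over all genes. When arrays were blocked by mouse number, 5 of the 9 passed, against 1.21% of genes higher (253) and 4.08% lower (855): Oas1a (adjusted p = 0.0183), Oas1g (0.0247), Oas2 (0.0188), Oas3 (0.0175) and Oasl2 (0.0201). Fibroblast markers summed to 54.1 to 137 on the arrays labelled Irgm1-/- against 193 to 223, smooth muscle markers to 1.58 to 3.05 against 6.72 to 10.9, and macrophage markers to 4.91 to 11.6 against 7.57 to 27.4. None of these 3 lists had a member past the threshold. The salivary acinar list, with 6 members tested here, summed to 2.71 to 4.14 against 16.2 to 18.3 and had 1 member lower. The part of these lists in the synthetase values was not tested.

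**Figure D1:**
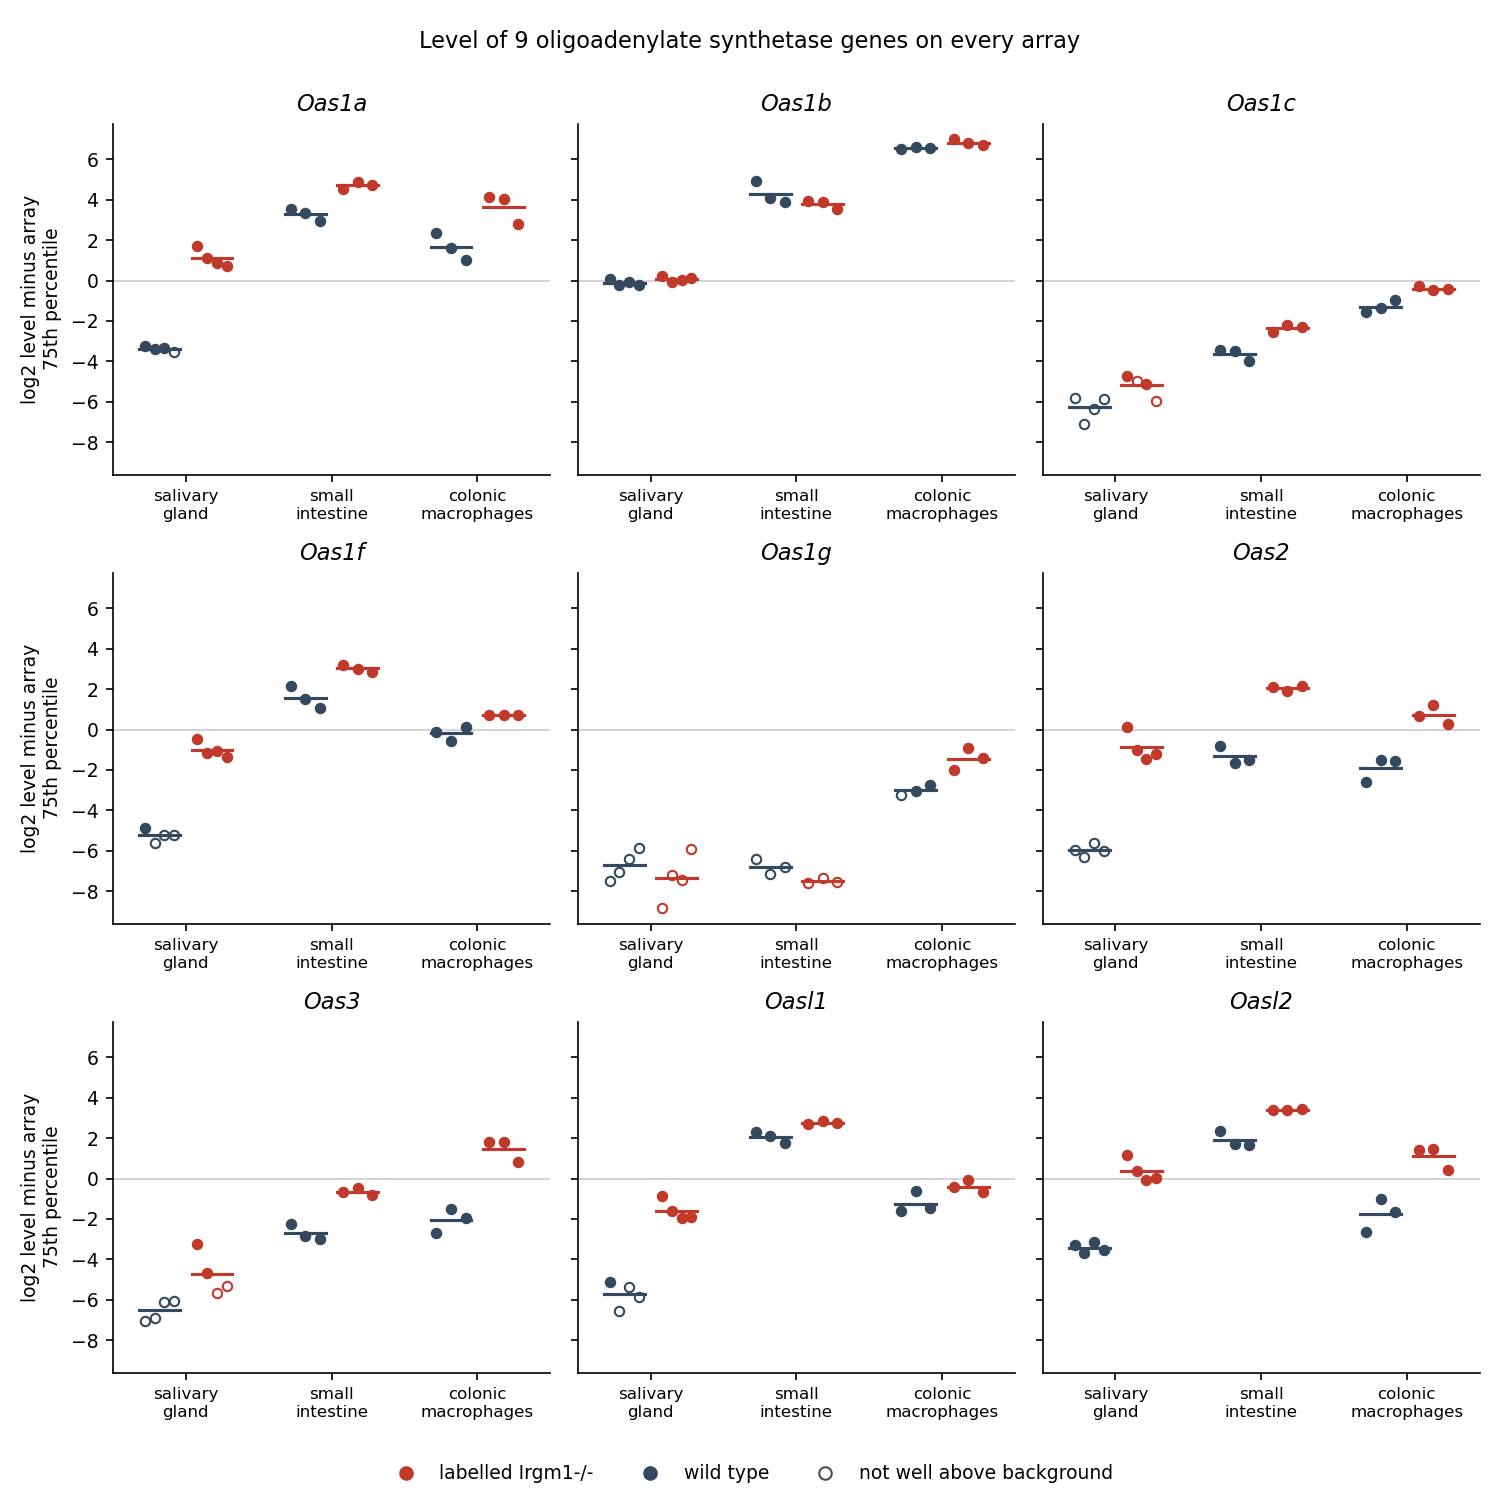
Level of each of the 9 genes on each of the 20 arrays (vertical axis: log2 level minus the array's 75th percentile; horizontal axis: tissue), with a line at each group mean and open points where the probe was not well above background. In salivary gland the points labelled Irgm1-/- of Oas1a, Oas1f, Oas2, Oasl1 and Oasl2 stand clear of wild type, while those of Oas1b overlap it. The salivary gland percentile is over detected probes only, so heights are not comparable between that tissue and the gut sources.

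Oas1a encodes a small synthetase with enzyme activity. In salivary gland its levels were 1.70, 1.12, 0.89 and 0.70 in the mice labelled Irgm1-/- and -3.25, -3.38, -3.34 and -3.53 in wild type mice. The groups were far apart: the difference came to 4.48 ± 0.21 (SE, n = 4 per group), a 22.2-fold rise (adjusted p = 2.53e-05, limma), with detection on 4 and 3 arrays. Small intestine levels were 4.54, 4.86 and 4.72 against 3.55, 3.35 and 2.94. In macrophages they were 4.13, 4.04 and 2.82 against 2.35, 1.63 and 1.02. Neither pair of groups overlapped, but the differences of 1.42 ± 0.20 (adjusted p = 0.109) and 2.0 ± 0.45 (0.131; SE, n = 3 per group) missed the threshold in limma. A second Oas1a probe gave differences of 4.18, 1.72 and 1.89 in the 3 tissues in that order. In salivary gland it reached the detection filter only through the arrays labelled Irgm1-/-, so a difference was built into its being tested. There it was detected on 4 arrays labelled Irgm1-/- and on 0 wild type arrays, a rise of at least 11.2-fold. This bound sets the mean of the brighter group against a floor for the dimmer one: per array, the lowest level of any detected probe, unless the probe itself read higher.

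Oas1f is an Oas1 copy whose probe resembles that of Oas1a. The best stretch of both 60-base probes is shown because cross-hybridization between the copies bears on how far their values are separate. Of its 25 bases 24 match, and the lower-case letter is the base that differs:

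Oas1a probe: TGTCCACCTGTTGGaAGGTTCTGTC
Oas1f probe: TGTCCACCTGTTGGgAGGTTCTGTC

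Over the whole aligned stretch, 48 of 58 columns were identical, and how much either transcript binds the other's probe was not tested. Oas1f levels in salivary gland were -0.44, -1.17, -1.06 and -1.38 in mice labelled Irgm1-/- and -4.86, -5.63, -5.20 and -5.22 in wild type, where 1 of 4 arrays detected it. The groups did not overlap. The fitted difference of 4.22 ± 0.23 (SE, n = 4 per group; adjusted p = 4.97e-05, limma) rests on wild type values mostly below background, so no fold is given, and it was 2.72, still past the threshold, with normexp background correction. Small intestine levels were 3.21, 2.99 and 2.87 against 2.18, 1.52 and 1.04. In macrophages they were 0.73, 0.71 and 0.74 against -0.14, -0.57 and 0.12. Both pairs of groups lay apart, with differences of 1.45 ± 0.30 (adjusted p = 0.331) and 0.93 ± 0.26 (0.189) that missed the threshold in limma.

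Oas1g, the other Oas1 copy known to be active, was seen mainly in macrophages. The probe that stands for it was detected on 0 arrays of salivary gland and small intestine. In macrophages its levels were -1.99, -0.90 and -1.42 in mice labelled Irgm1-/- and -3.23, -3.04 and -2.74 in wild type, with the groups apart and a difference of 1.57 ± 0.33 (SE, n = 3 per group; adjusted p = 0.12, limma). A second Oas1g probe was detected in small intestine on 3 arrays labelled Irgm1-/- (-4.73, -5.01 and -5.04) and on 0 wild type arrays (-6.60, -6.87 and -6.93). It reached the filter only through the arrays labelled Irgm1-/-. The difference of 1.87 ± 0.17 passed in the fit over all probes (adjusted p = 0.0303, limma, against 0.117% of 23139 probes called higher; of the members' other probes there, Oas2's passed), but the brighter group lay at the detection limit, so no fold is given. The call was lost under the block of mouse numbers (0.144), with the array median (0.0577) or an intensity trend (0.109) and without any of the 3 arrays labelled Irgm1-/- or wild type mouse 2 or 3 (adjusted p from 0.115 to 0.254), and with normexp background correction the difference was -0.17. In macrophages the second probe was at -3.51, -2.44 and -3.28 against -5.14, -4.93 and -6.20, detected on 2 arrays and 0 arrays and not tested. Not every array labelled Irgm1-/- detected it, so no fold is given.

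Oas1c is another Oas1 copy. It was detected in salivary gland on 2 arrays labelled Irgm1-/- and 0 wild type arrays and was not tested there. Its small intestine levels were -2.54, -2.23 and -2.32 against -3.43, -3.47 and -4.00. Its macrophage levels were -0.29, -0.46 and -0.43 against -1.57, -1.36 and -0.95. The groups lay apart in both, with differences of 1.27 ± 0.20 (adjusted p = 0.157) and 0.89 ± 0.26 (0.197) that missed the threshold in limma. Its probe matches that of Oas1d at 42 of 55 overlapping bases.

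Oas1b stood apart from the other members. In C57BL/6 mice this copy is known to carry a premature stop, and the RefSeq table lists it as a transcribed pseudogene. The probe that stands for it read 0.25, -0.07, 0.04 and 0.11 in salivary gland of mice labelled Irgm1-/- and 0.07, -0.23, -0.09 and -0.23 in wild type, overlapping groups with a difference of 0.20 ± 0.12 (SE, n = 4 per group; 95% interval -0.08 to 0.47; adjusted p = 0.361, limma). In small intestine it read 3.93, 3.86 and 3.56 against 4.92, 4.09 and 3.87. The groups overlapped, with a difference of -0.51 ± 0.29 (adjusted p = 0.667, limma), and wild type mouse 1 was the highest. In macrophages, where Oas1b was at its highest level, it read 6.98, 6.79 and 6.72 against 6.49, 6.63 and 6.54, groups that lay apart by a small step of 0.28 ± 0.23 (0.813).

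The 3 Oas1b probes did not agree on the size of the change. The first and second share 42 bases without a mismatch, of which 30 are shown because probes reading the same bases would be taken to give the same answer. The third reads another stretch of the transcript, and its first 30 bases are shown in lower case:

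Oas1b probes 1 and 2: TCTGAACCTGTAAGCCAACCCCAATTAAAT
Oas1b probe 3: cagaaggagaatattatggtttgtatatgg

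In salivary gland the second probe read -1.14, -1.50, -1.69 and -1.43 against -1.98, -2.28, -2.03 and -2.10. These groups lay apart by 0.66 ± 0.14 (adjusted p = 0.0512, limma over all probes), beside 0.20 for the first probe on the same arrays, and it passed without mouse 3 labelled Irgm1-/- (0.0375) and in 5 of 8 other settings (0.0423 to 0.0494). The third probe read -3.03, -3.82, -4.10 and -4.06 against -4.76, -5.19, -4.99 and -4.75, detected on 3 and 1 arrays, and its difference of 1.17 ± 0.24 passed (adjusted p = 0.0449, against 2.12% of 13634 probes called higher). That call was lost without mouse 2 labelled Irgm1-/- (0.121) without any of the 4 wild type mice (0.1 to 0.158), and with the array median (0.21) or normexp (0.215). In small intestine the third probe read -1.32, -1.40 and -1.32 against -2.26, -2.96 and -2.90. Here the groups lay apart by 1.36 ± 0.22 (0.177; 0.0119 without wild type mouse 1), while the second probe gave -0.30 ± 0.45 (0.778) like the first. In macrophages the 3 probes gave 0.28, 0.28 and 0.47, none past the threshold (adjusted p from 0.742 to 0.826, limma; 0.00748% of 26725 probes were called higher, Oas3 among them). The mean of all 3 probes turned the small intestine difference from -0.51 to 0.18.

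**Figure D2:**
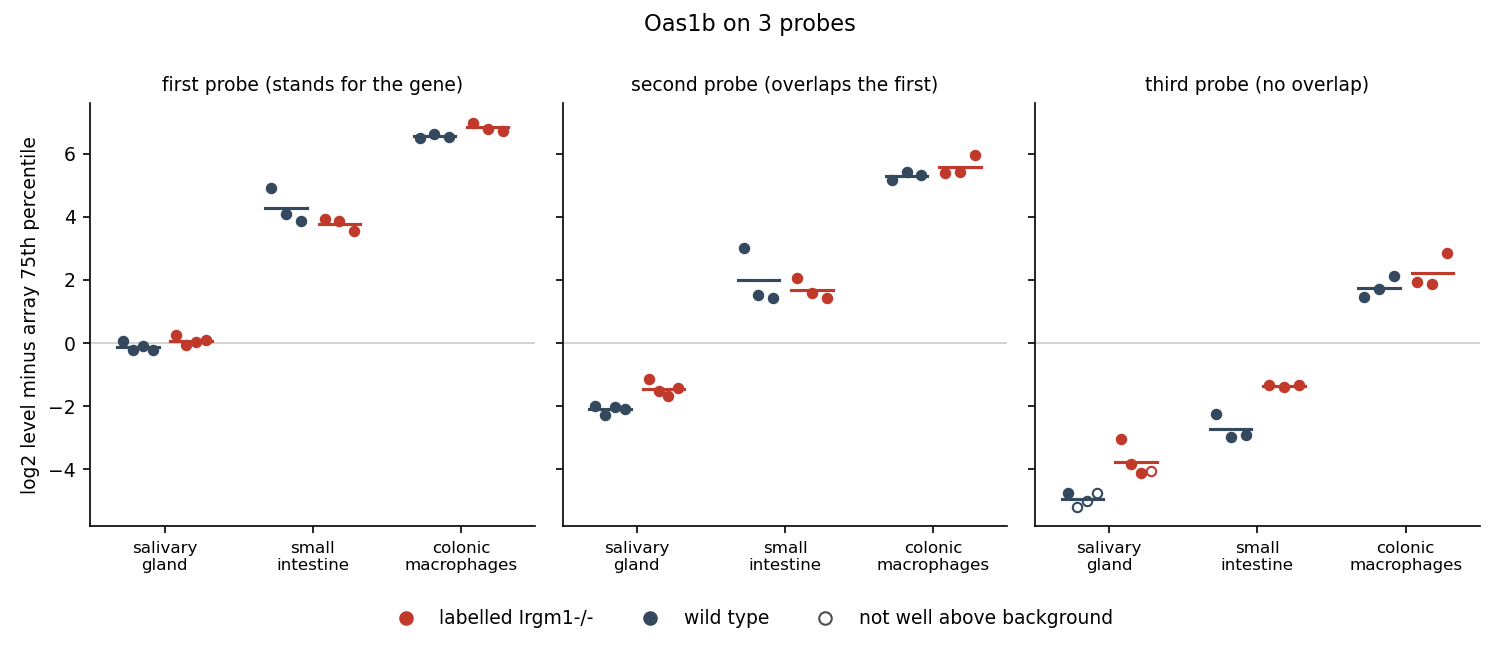
Level of Oas1b on each array read by its 3 probes (vertical axis: log2 level minus the array's 75th percentile; horizontal axis: tissue; lines are group means, open points not well above background). The first probe shows level groups in salivary gland (difference 0.20), the second a small step (0.66) and the third a larger one (1.17), and only the third has mice labelled Irgm1-/- higher in small intestine. Heights in salivary gland are not comparable with those of the gut sources, since its percentile is over detected probes only.

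Oas2, an enzyme built of a pair of synthetase units, showed the widest gap among the members in small intestine. In salivary gland the levels were 0.14, -1.0, -1.44 and -1.23 in mice labelled Irgm1-/- and -5.94, -6.32, -5.60 and -6.01 in wild type, where 0 of 4 arrays detected it. The rise was at least 12.6-fold (fitted difference 5.08 ± 0.33, SE, n = 4 per group; adjusted p = 0.000115, limma), and with normexp the difference was 3.21, still past the threshold. In small intestine the levels were 2.12, 1.91 and 2.17 against -0.83, -1.64 and -1.53. The groups were well apart, with a difference of 3.40 ± 0.24, or 10.5-fold (adjusted p = 0.0144), the smallest adjusted p of a member in that tissue. In macrophages the levels were 0.65, 1.19 and 0.28 against -2.62, -1.49 and -1.54, apart by 2.59 ± 0.38, or 6.04-fold, which missed the threshold (0.0649). In small intestine the call was lost without any of the 3 arrays labelled Irgm1-/- (0.182, 0.0948 and 0.136) and without wild type mouse 2 (0.0577) or 3 (0.0932), and in macrophages it was gained in 9 of the 13 other settings tried.

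Oas3, the largest synthetase, was the member that passed in both gut sources. In salivary gland it was detected on 2 arrays labelled Irgm1-/- (-3.22 and -4.66, with -5.65 and -5.31 on the arrays that did not detect it) and on 0 wild type arrays (-7.06, -6.90, -6.09 and -6.05) and was not tested. In small intestine its levels were -0.69, -0.47 and -0.81 against -2.27, -2.83 and -2.98. The groups lay apart by 2.04 ± 0.22 (SE, n = 3 per group), or 4.1-fold (adjusted p = 0.0454, limma). In macrophages they were 1.81, 1.79 and 0.82 against -2.71, -1.51 and -1.97, the widest gap of any member there: 3.54 ± 0.40, or 11.6-fold (0.0142). The small intestine call was lost without any of the 3 arrays labelled Irgm1-/- (0.301, 0.249 and 0.239), without wild type mouse 2 (0.144) or 3 (0.177) and in 8 of 13 other settings. The macrophage call was lost without mouse 1 (0.0795) or mouse 2 (0.0639) labelled Irgm1-/- and held in the 13 other settings.

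Oasl1 encodes a synthetase-like protein without enzyme activity that is known to hold back translation of Irf7. Its salivary gland levels were -0.85, -1.61, -1.97 and -1.91 in mice labelled Irgm1-/- and -5.14, -6.57, -5.38 and -5.86 in wild type, where 1 of 4 arrays detected it. These groups were clear of each other. The fitted difference of 4.15 ± 0.35 (SE, n = 4 per group; adjusted p = 0.0005, limma) also rests on wild type values mostly below background, and it was 2.42, still past the threshold, with normexp. In small intestine the levels were 2.72, 2.85 and 2.73 against 2.33, 2.10 and 1.75. In macrophages they were -0.43, -0.09 and -0.67 against -1.63, -0.64 and -1.48. The small intestine groups lay apart by 0.71 ± 0.18 (0.578) and the macrophage groups overlapped, with a difference of 0.85 ± 0.33 (0.384), so both were among the smallest differences of the family.

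Oasl2, a synthetase-like protein that keeps the enzyme activity, was detected on every array of the study. Its salivary gland levels were 1.19, 0.37, -0.06 and 0.03 against -3.29, -3.69, -3.15 and -3.53, groups far apart, with a difference of 3.80 ± 0.27 (SE, n = 4 per group), or 13.9-fold (adjusted p = 0.000187, limma). In small intestine they were 3.40, 3.38 and 3.46 against 2.36, 1.72 and 1.68. In macrophages they were 1.40, 1.48 and 0.43 against -2.65, -1.03 and -1.63. Both pairs of groups lay apart, by 1.49 ± 0.21 (0.115) and by 2.88 ± 0.46 or 7.34-fold (0.071), short of the threshold. In small intestine Oasl2 passed without wild type mouse 1 (0.0112) and with quantile normalization (0.0404) or the authors' table (0.0419). In macrophages it passed in 4 of 13 other settings: the array median (0.0411), normexp (0.0289), the block of mouse numbers (0.0201) and the fit of all 20 arrays (0.000488).

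Each tissue was hybridized on 2 slides that both held both genotypes. Within the slides of salivary gland, the fitted differences of the 5 members that rose were 3.33 to 5.70, under the same limit for Oas1f, Oas2 and Oasl1. Within the slides of small intestine Oas2 differed by 2.94 and 3.62 and Oas3 by 1.58 and 2.26, and within those of macrophages Oas3 differed by 3.91 and 2.79. With the slide as a block the counts of members called stayed at 5, 2 and 1.

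**Figure D3:**
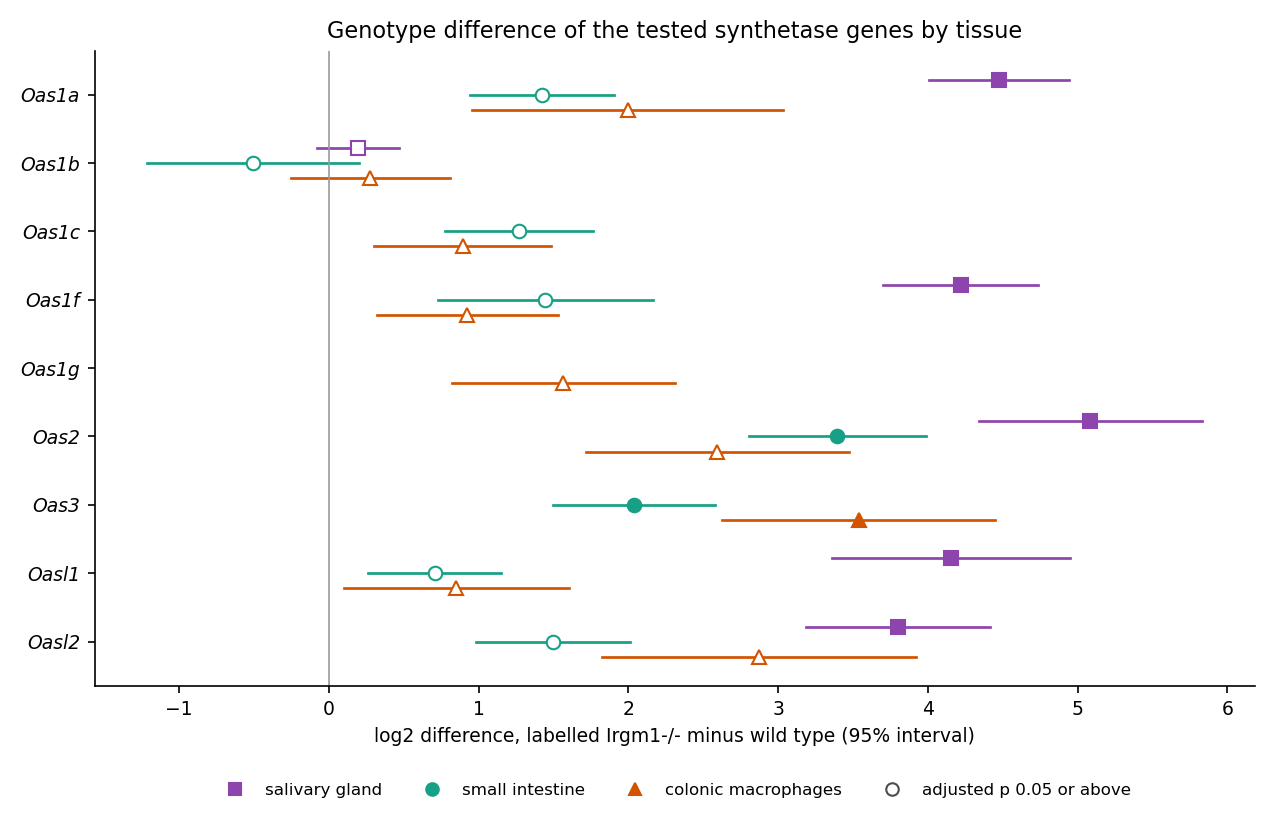
Difference between mice labelled Irgm1-/- and wild type mice for each tested gene (horizontal axis: log2 difference with its 95% interval; vertical axis: gene; colour and shape: tissue; filled where the adjusted p is below 0.05). The 5 filled salivary gland squares lie to the right of the gut values of the same genes, those of Oas1f, Oas2 and Oasl1 with wild type arrays mostly below background, and Oas1b lies between -0.51 and 0.28.

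Whether the genotype difference itself differed between tissues was tested as an interaction over the 20 arrays. Oas1f, Oas2 and Oasl1 reached the salivary gland filter only through the arrays labelled Irgm1-/-. A difference in that tissue was thus built into their being tested here, which does not hold for most of the genes in the shares given. Between salivary gland and small intestine, 4 of the 6 members tested in both had a larger difference in salivary gland, against 0.748% of 10822 genes (0.0647% had a smaller one): Oas1a by 3.05 ± 0.45 (SE; adjusted p = 0.00127, limma), Oas1f by 2.77 ± 0.36 (0.000436), Oasl1 by 3.45 ± 0.46 (0.000436) and Oasl2 by 2.31 ± 0.49 (0.0281). For Oas2 the excess of 1.69 ± 0.49 was not called (95% interval 0.66 to 2.72; 0.17), and its wild type level in salivary gland was below background. Between salivary gland and macrophages, 4 of the 6 passed as well, against 6.45% of 10720 genes (0.989% had a smaller one): Oas1a by 2.48 ± 0.45 (0.00168), Oas1f by 3.29 ± 0.36 (3.77e-05), Oas2 by 2.49 ± 0.49 (0.00311) and Oasl1 by 3.30 ± 0.46 (0.000235). The Oas2 excess rests on wild type salivary gland values that were below background on each of 4 arrays, and it was lost with normexp (1.02; 0.284). The excess of Oasl2 was 0.93 ± 0.49 (95% interval -0.11 to 1.96; 0.365). These comparisons share the salivary gland arrays, and tissue and scan day cannot be told apart. They set a difference that goes with age in salivary gland against one that goes with sex in the gut sources, in other animals. Tissue cannot be told apart from these either. With normexp background correction the salivary gland and small intestine count fell to 1: the excess of Oas1f was 1.16 (0.266), of Oasl1 1.59 (0.0683) and of Oasl2 1.59 (0.157). The Oasl2 call against small intestine was also lost without any of 8 of the 14 arrays: mouse 2 labelled Irgm1-/- and wild type mice 1, 2 and 4 of salivary gland, and the 3 mice labelled Irgm1-/- and wild type mouse 1 of small intestine (adjusted p from 0.0528 to 0.11).

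Between small intestine and macrophages of the same animals, 0 of the 8 members tested in both passed, against 1.20% of 15736 genes higher in the first and 0.222% lower, with 3 at an unadjusted p below 0.05. Oas3 (-1.50 ± 0.70; adjusted p = 0.275, limma) and Oasl2 (-1.38 ± 0.54; 0.2) had the larger difference in macrophages, and Oas1b (-0.78 ± 0.30; 0.2) was the other member below 0.05 unadjusted. With the animal as a random block the count was also 0.

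Levels were set in order over the 6 groups with each array at the 75th percentile of all its probes, a description only, since the tissues were scanned on separate days. Salivary gland arrays detected 25.2% to 48.7% of probes, against 52.6% to 74.2% on the gut arrays. That percentile thus lies nearer to background in salivary gland, and the place of salivary gland in the order depends on the scaling. Oas1a was highest in small intestine labelled Irgm1-/- (4.70), followed by salivary gland (4.51) and macrophages (3.66) of that label and small intestine of wild type (3.28), with overlapping ranges between neighbours. Wild type macrophages (1.67) and wild type salivary gland (0.14) came below, each apart from the group above. Oas1f ran from small intestine labelled Irgm1-/- (3.02) down to wild type salivary gland (-1.72).

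Oas2 was highest on this scaling in salivary gland labelled Irgm1-/- (2.53), with small intestine of that label (2.06) overlapping it. It was lowest in wild type salivary gland (-2.46), which overlapped wild type macrophages (-1.88). With the salivary gland percentile over detected probes only, its mean in salivary gland labelled Irgm1-/- was -0.88, below that of small intestine. Oas3 was highest in macrophages labelled Irgm1-/- (1.47), apart from every other group, and the ranges of the other 5 groups ran into each other from -0.66 down to -3.02. On both scalings Oas1a, Oas1f and Oasl1 stood highest in small intestine labelled Irgm1-/- and Oas3 in macrophages of that label. Wild type salivary gland detected Oas2 and Oas3 on 0 of 4 arrays and Oas1f and Oasl1 on 1 of 4. Their low places there rest on values mostly below background.

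Oasl1 was highest in small intestine labelled Irgm1-/- (2.77), apart from wild type small intestine (2.06), which overlapped salivary gland labelled Irgm1-/- (1.82), and wild type salivary gland (-2.23) was lowest, overlapping wild type macrophages (-1.25). Oasl2 was highest on this scaling in salivary gland labelled Irgm1-/- (3.79), overlapping small intestine of that label (3.41), and lowest in wild type macrophages (-1.77). With the salivary gland percentile over detected probes only, its salivary gland means were 0.385 under the Irgm1-/- label and -3.42 in wild type. On that scaling small intestine labelled Irgm1-/- was highest and wild type salivary gland lowest. Oas1b, read by its first probe, followed tissue more than label: macrophages (6.83 and 6.55), then small intestine (4.29 in wild type and 3.79) and salivary gland (3.49 and 3.39), with overlap between every neighbouring pair below macrophages. Its other probes, the third of which differed more between labels in salivary gland and small intestine, were not set in order. Oas1c was highest in macrophages of both labels (-0.40 and -1.29), and Oas1g was detected with its first probe only there (-1.44 and -3.0).

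Once group means were taken out, the tested members correlated with each other from mouse to mouse in whole tissues. Over the 8 salivary gland arrays all 15 pairs of the 6 tested members correlated above 0, with a median r of 0.79 and a range of 0.53 to 0.99. Over the 6 small intestine arrays all 28 pairs did, with a median of 0.81. In macrophages 25 of 36 pairs did, with a median of 0.23 and a range of -0.77 to 0.99. These points share arrays and their scaling. Salivary gland mouse 1 labelled Irgm1-/-, on the brightest array of that tissue (1021.7), read highest of its group for each tested member. Wild type mouse 1 of small intestine, on the dimmest array there (2321.5), also read highest of its group for each tested member. How far single arrays carry these correlations was not tested. Pairs of other genes were not examined, so whether the members correlate more than genes at large was not tested. Across all 20 arrays only the mean of each tissue was taken out, so the r values that follow hold the difference between labels. On these values Oas1a, Oas1f, Oas2, Oasl1 and Oasl2 each followed the mean of the other members (r from 0.95 to 0.97). Oas1b, read by its first probe, did not (r = 0.23). Of 10434 genes detected in all tissues, those most like the mean of the 6 members, with the difference between labels left in, were Lgals3bp (r = 0.98), Ifit3 (0.98), Rtp4 (0.98), Ifit3b (0.97), Rsad2 (0.97) and Irgm1 (0.97).

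In the RefSeq order of GRCm38.p6, Oas2, Oas3, Oas1e, Oas1c, Oas1b, Oas1f, Oas1h, Oas1g, Oas1a and Oas1d lie in a row on chromosome 5, between Dtx1 and Rph3a. Oasl2 and Oasl1 lie as a pair elsewhere on that chromosome, between 4930519G04Rik and 2210016L21Rik. None of the flanking genes passed: Dtx1 differed by -0.08 ± 0.21 (adjusted p = 0.875, limma) in small intestine and 0.36 ± 0.37 (0.861) in macrophages and was detected on 0 salivary gland arrays. Rph3a was detected on 0 arrays. 2210016L21Rik differed by 0.23 ± 0.11 (0.281), -0.32 ± 0.20 (0.667) and 0.18 ± 0.33 (0.929) in the 3 tissues, and 4930519G04Rik was detected on 2 arrays of the 20, both of small intestine.

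The promoters were read because the members correlated with each other in whole tissues. RefSeq sequence of the 250 bases upstream of the start (GRCm38.p6) was at hand for 7 of the 9, Oas1a, Oas1c, Oas1f, Oas1g, Oas3, Oasl1 and Oasl2. The core of the interferon-stimulated response element, searched as GAAANNGAAA on both strands, was present in 4 of the 7, against 2.98% of 32851 promoters of the same length. The core of the gamma-activated site, TTCNNNGAA, was present in 1 of the 7, Oas1a, against 7.02%. Shown are 100 bases from the minus strand of each of the 4 promoters with a match, written 5′ to 3′ along the gene, with the response element matches in capitals. The windows are chr5:120907526-120907625 (Oas1a), chr5:120887614-120887713 (Oas1g), chr5:120777660-120777759 (Oas3) and chr5:120812549-120812648 (Oas1c), and the first 3 end at the base before the start:

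Oas1a: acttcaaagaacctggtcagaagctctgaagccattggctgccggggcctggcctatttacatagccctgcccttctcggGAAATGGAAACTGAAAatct
Oas1g: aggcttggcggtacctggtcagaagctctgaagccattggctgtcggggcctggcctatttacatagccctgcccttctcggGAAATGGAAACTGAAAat
Oas3: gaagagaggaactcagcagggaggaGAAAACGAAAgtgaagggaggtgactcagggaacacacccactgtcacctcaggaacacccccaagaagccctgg
Oas1c: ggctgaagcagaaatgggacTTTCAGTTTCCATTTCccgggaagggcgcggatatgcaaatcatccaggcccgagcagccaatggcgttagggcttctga

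Oas1a and Oas1g are near copies: 212 of 244 aligned bases of the 250 were identical, or 86.9%, and both hold a pair of overlapping matches in the same 16 bases, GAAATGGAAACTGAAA. Oas1c holds the same 16 bases on the other strand, farther from its start. Over all promoters, 7 entries held them, those of Oas1a, Oas1c, Oas1g, Apol9a and Apol9b, some with several entries. These 16 bases were chosen after the sequences were seen. Oas1f, Oasl1 and Oasl2, which rose in salivary gland, had no match in this window, and a match or its lack says only which letters are there.

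**Figure D4:**
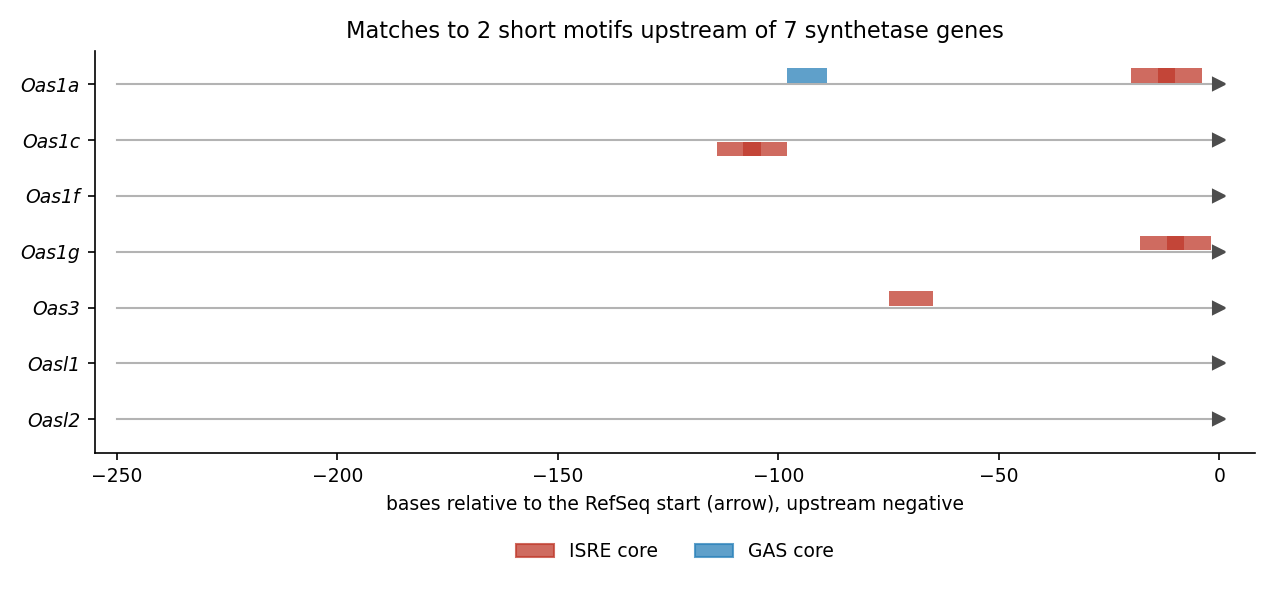
Positions of the motif matches upstream of the 7 members with a RefSeq promoter (horizontal axis: bases relative to the start, upstream negative; rows: genes; boxes above the line are on the gene's strand, below it on the other). Oas1a and Oas1g have their overlapping response element matches next to the start, Oas3 and Oas1c farther upstream, and 3 genes have none.

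Among genes tied to the turnover of oligoadenylates and their action, none of those reported passed. Abce1, an ATP-binding protein of the ribosome recycling machinery, differed by -0.01, -0.32 and 0.43 in the 3 tissues, short of the threshold (adjusted p = 0.963, 0.667 and 0.712, limma). Pde12, a phosphodiesterase that breaks oligoadenylates down, was detected on 0 salivary gland arrays and differed by -0.15 and -0.57 in the gut sources, short of the threshold. Akap7, which carries a phosphodiesterase domain of that kind, differed by 0.68 ± 0.17 in salivary gland (adjusted p = 0.0772, limma) and by -0.36 and 0.26 in the gut sources.

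Of the remaining Oas1 copies, none passed. Oas1e was detected in small intestine on 3 arrays labelled Irgm1-/- and 0 wild type arrays, at least 1.92-fold higher (adjusted p = 0.216, limma). It reached the detection filter only through the arrays labelled Irgm1-/-, so a difference was built into its being tested. Oas1d and Oas1h were tested in macrophages only, where they differed by -0.41 ± 0.46 (0.874) and 0.55 ± 0.26 (0.537).

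Among 8 genes that sense or act on double-stranded RNA beside the synthetases, 5 of the 6 tested rose in salivary gland, against 2.09% of the 11463 genes tested. They were Zbp1 (3.50 ± 0.32, 11.3-fold; adjusted p = 0.000619, limma), Dhx58 (at least 4.68-fold, below background in wild type; 0.0011), Ifih1 (1.84 ± 0.16; 0.000506), Ddx58 (1.81 ± 0.17; 0.000803) and Adar (1.11 ± 0.21; 0.0329), the last named after its value was seen. Ifih1 and Ddx58 encode the cytosolic sensors MDA5 and RIG-I, and Dhx58 their relative LGP2. Dhx58 reached the detection filter only through the arrays labelled Irgm1-/-, so a difference was built into its being tested. Eif2ak2, the RNA-activated kinase PKR, was detected on 3 arrays labelled Irgm1-/- and 0 wild type arrays and was not tested. Not every array labelled Irgm1-/- detected it, so no fold is given. The Adar call was lost without mice 1, 2 or 4 of either label (0.0518 to 0.129), with the array median (0.199), without a detection filter (0.202) and when blocked by mouse number (0.0556). That of Ddx58 was lost with the mean of its probes (1.21; 0.0684).

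In the gut sources Dhx58 was the only one of this list to pass, at 1.97 ± 0.16 in small intestine (1 of 8 tested; adjusted p = 0.0197, limma) and 2.18 ± 0.29 in macrophages (1 of 7; 0.0436). Over all genes, 0.145% of 17965 were called higher in small intestine and 0.00954% of 20959 in macrophages. Blocking by mouse number gave Dhx58 0.0947 in small intestine, while in macrophages Adar (0.0313) and Irf7 (0.0188) joined it and Ifnar2, a chain of the interferon receptor, fell (-1.38; 0.0257), genes named after these values were seen. Under that block 1.21% of all macrophage genes were called higher and 4.08% lower. The Dhx58 calls were lost without any of the 3 arrays labelled Irgm1-/- or wild type mouse 2 or 3 of small intestine (0.079 to 0.192), and without mouse 1 or 2 labelled Irgm1-/- or any wild type mouse of macrophages (0.0771 to 0.184). With normexp they were lost in small intestine (0.114) and in macrophages (0.0901), and in macrophages also with quantile normalization (0.0647), the authors' table (0.072) or no detection filter (0.0745). Ifih1 differed by 0.36 ± 0.19 (0.667) and 0.76 ± 0.28 (0.329), and Eif2ak2 by 0.68 ± 0.26 (0.667) and 0.84 ± 0.35 (0.443).

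Of 9 genes that carry the interferon signal to these promoters, 4 of the 6 tested rose in salivary gland: Irf7 (at least 11.7-fold, below background in wild type; adjusted p = 0.0005, limma), Stat2 (1.62 ± 0.18; 0.00165), Irf9 (1.39 ± 0.16; 0.00207) and Irf1 (1.36 ± 0.28; 0.048). Stat2 and Irf9 are parts of the factor that binds the response element. These 4 calls stand against 2.09% of the 11463 genes tested. Irf7 reached the detection filter only through the arrays labelled Irgm1-/-, so a difference was built into its being tested. The Irf1 call was lost without mouse 2 labelled Irgm1-/- or any of the 4 wild type mice (0.0752 to 0.165), with the array median (0.108), quantile normalization (0.0539), the authors' table (0.0545) or no detection filter (0.233), and with the mean of all its probes its difference was 0.29 (0.512). That of Irf9 was lost with the array median (0.0681).

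In the gut sources 0 of the 9 passed, against 0.145% of genes called higher in small intestine and 0.00954% in macrophages. Irf7 differed by 1.84 ± 0.41 (adjusted p = 0.396, limma) in small intestine and 1.74 ± 0.30 (0.0884) in macrophages. Stat2 differed by 0.83 ± 0.17 (0.32) and 0.77 ± 0.38 (0.558), and Irf9 by 0.56 ± 0.22 (0.667) and 0.93 ± 0.28 (0.21). In salivary gland the median differences were 1.82 for the sensing and 1.37 for the signal list, beside 4.19 for the synthetases and 0.03 for all genes. The sensing list had medians of 0.54 in small intestine, beside 1.43 and -0.10, and of 0.76 in macrophages, beside 1.57 and 0.10.

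**Figure D5:**
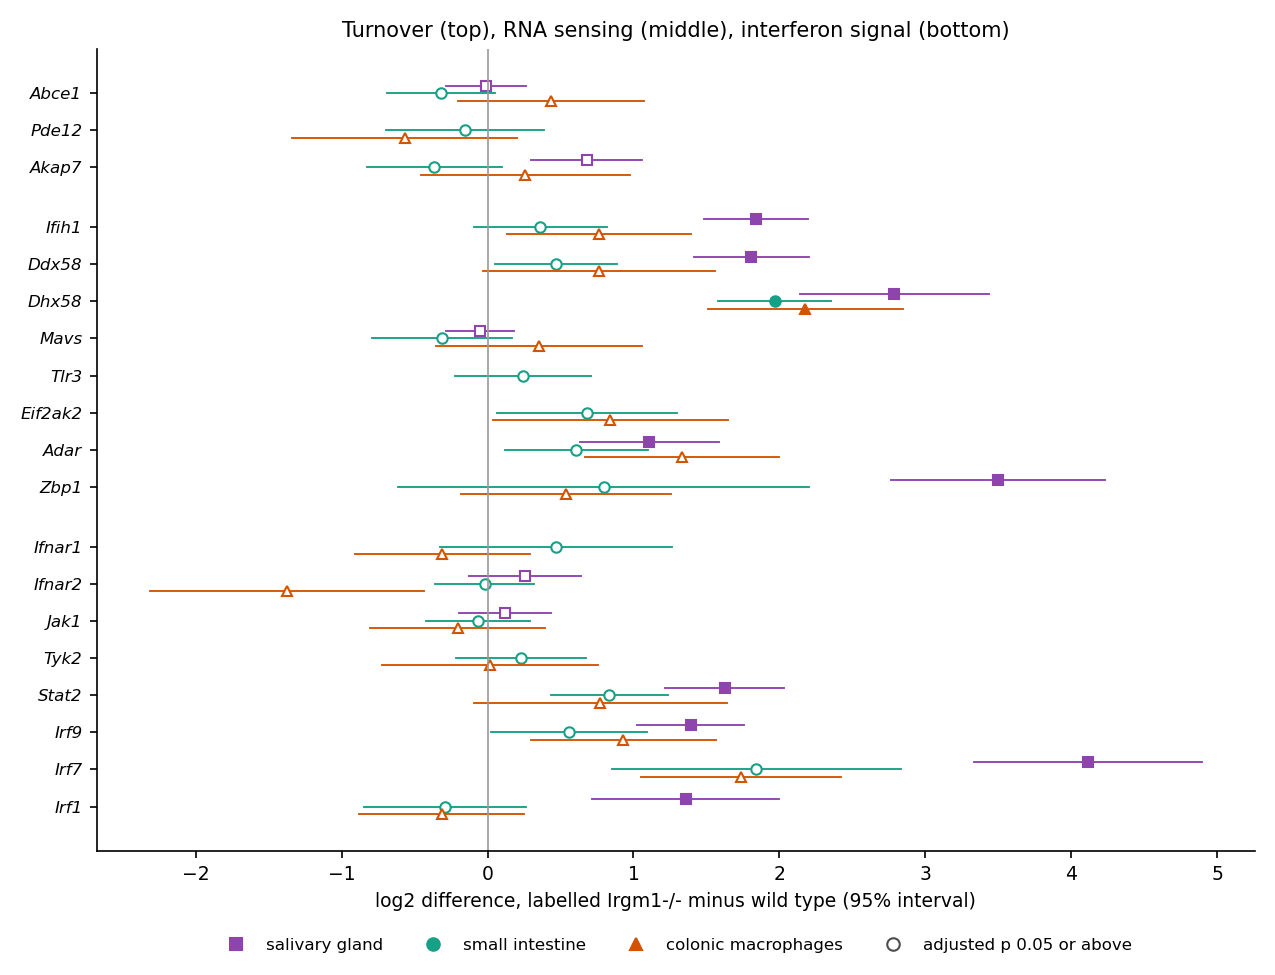
Difference between mice labelled Irgm1-/- and wild type mice for the reported genes of turnover, sensing and signal (horizontal axis: log2 difference with its 95% interval; vertical axis: gene; colour and shape: tissue; filled where the adjusted p is below 0.05). Of 9 filled squares in salivary gland, 5 are in the sensing list and 4 in the signal list, Dhx58 is filled in each tissue, and the turnover rows are open.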

How the data were processed

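The deposited scanner output gives linear intensity per spot, already corrected for background by Agilent Feature Extraction 11.5.1.1 per the file headers (array design 026655, annotation build mm9), and were not normalized between arrays. The other deposited columns used are 0 or 1 flags per spot, well above background and outlier. The authors' series table gives intensity too, by steps the labels do not state, and served as an alternative.

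Outlier flags removed 0.434% of the 43020 non-control spots per array, and no flag for saturation was set (0 spots). Spots of a probe were averaged on the log2 scale and set to the array's 75th percentile (in salivary gland, where under 50% of probes were detected, over probes detected on every array of the tissue). Names came from RefSeq by accession for 27508 probes, and 11921 kept the name in the file. A gene was read from its brightest probe (mean of all arrays) and tested where detected on at least 4 (salivary gland) or 3 arrays. Each tissue was fitted alone with limma 3.58.1 in R 4.3.3 (lmFit, eBayes, Benjamini-Hochberg, threshold 0.05), member probes in a fit over all probes, and tissues compared in a fit of 6 group means. Arrays carry no read depth, so their number limits the precision. The fitting step was tested on simulated data.

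The members, gene lists and naming rule (all members, the lists of Oas1 copies and of turnover in full, up to 4 called genes of the other lists per tissue with Stat2, Irf9, Ifih1 and Eif2ak2 throughout, the 6 genes most like the members, and the chromosomal neighbours) were chosen with earlier results of these data known. Results for 2 genes of these lists are not reported here. Same-numbered mice, whose ages and slides match in the gut sources, correlated in their deviations from group means by 0.23 to 0.33 in the 3 small intestine pairs and 0.24 to 0.63 in the 3 macrophage pairs, so the numbers were taken to pair arrays there. The labels name no pairs, and mice of unlike number were not correlated for comparison, so the pairing is an assumption. Promoters came from RefSeq (GRCm38.p6), matched by symbol. Alternatives were other scalings, background correction, detection filters, probe choice, slide and mouse number as blocks, and each array left out.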

Additional observations from a re-analysis of the deposited data

Results flagged for a closer look

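The genotype difference was larger in salivary gland than in small intestine for Oas1a (by 3.05 on the log2 scale), Oas1f (2.77), Oasl1 (3.45) and Oasl2 (2.31), each by an interaction test in limma. Against colonic macrophages it was larger in salivary gland for Oas1a (2.48), Oas1f (3.29), Oas2 (2.49) and Oasl1 (3.30). Wild type salivary gland was below background on 4 of 4 arrays for Oas2, and on 3 of 4 for Oas1f and Oasl1. These 3 genes reached the filter there only through the arrays labelled Irgm1-/-, so a difference was built into their being tested. The labels also differ in age in salivary gland and in sex in the gut sources. With normexp the calls of Oas1f, Oasl1 and Oasl2 against small intestine and of Oas2 against macrophages were lost. In 30 groups of 4 salivary gland arrays, one for each genotype of each probe of the members and Irgm1, 0 held a mouse far enough from the others to stand out by Dixon's test, where chance alone would mark about 1 in 20.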

How the results depend on the processing

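In salivary gland 5 members passed under each of the 14 alternatives and with any array left out, though normexp took Oas1f to 2.72, Oas2 to 3.21 and Oasl1 to 2.42. There 7 to 9 of the pathway genes passed with an array left out. In small intestine the member count of 2 was 1 with the array median, without a detection filter, in the fit over all probes and in the fit of all 20 arrays, 3 with quantile normalization or the authors' table (Oas3 lost, Oas1a and Oasl2 gained), 0 with normexp or the replicate block, and ran from 0 to 3 with an array left out. The pathway count there was 0 with normexp or the replicate block and 0 to 1 with an array left out. In macrophages the member count of 1 became 3 with the array median or normexp, 2 with quantile normalization, the authors' table, detection on every array of a group, an intensity trend or only features with a gene name (chosen after seeing the data), 5 with the replicate block and 4 when all 20 arrays were fitted together, and was 0 to 1 with an array left out. The pathway count there was 0 with quantile normalization, the authors' table or no detection filter, 4 with the replicate block, 5 when all 20 arrays were fitted together and 0 to 1 with an array left out. The count of members that differed between salivary gland and small intestine was 1 with normexp and 3 to 4 with an array left out. The replicate block, whose numbers were not taken to pair arrays in salivary gland (r of 0.22, -0.11, -0.52 and 0.44), left 5 members called there and took Akap7 to an adjusted p of 0.049 and Adar to 0.0556 (limma). Over all genes it moved the higher calls from 240 to 388 in salivary gland, 26 to 1 in small intestine and 2 to 253 in macrophages, and the lower calls from 27 to 855 in macrophages. The cause of these changes was not tested.

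Signs turned for Oas1b in small intestine (0.18 with the mean of its probes), its second probe there without wild type mouse 1 (0.21, with a range of -0.58 to 0.21 over arrays left out), the second Oas1g probe there with normexp (-0.17), and for differences between tissues: Oas2 between salivary gland and small intestine (-0.017 with normexp), Oas1b between salivary gland and macrophages (0.051 with the array median and 0.33 with the mean of its probes), and, between small intestine and macrophages, Oas1c (-0.12 with normexp) and Oasl1 (0.024 with quantile normalization, 0.0091 with normexp, 0.026 with the authors' table, and from -0.45 to 0.045 over arrays left out, above 0 without macrophage mouse 2 labelled Irgm1-/- or wild type macrophage mouse 1). The array median moved the median of all genes from 0.03 to 0.15 in salivary gland and from -0.10 to -0.20 in small intestine, and normexp moved the former to -0.08, far less than the differences of the 5 members called. Weak signal over background limits Oas1c, Oas1g and Oas3 in salivary gland.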
